A study of Mus musculus with 9 samples.

Results

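Oxidative phosphorylation is carried out by 5 protein complexes whose subunits come from the mitochondrial and the nuclear genome. Its genes were followed in B16F10 cells, a mouse melanoma line. They were chosen by symbol: protein-coding genes named mt-, Nduf with a subunit letter and number, Sdha to Sdhd, Uqcr, Cox4 to Cox8 or Atp5. The rule took 98 of the 51717 genes in the tables, 13 on the mitochondrial chromosome and 85 nuclear. By symbol, 37 nuclear members belong to complex I, 4 to complex II, 8 to complex III, 18 to complex IV and 18 to complex V. Of the mitochondrial members, 7 belong to complex I, 1 to complex III, 3 to complex IV and 2 to complex V. The filter on low counts was passed by all 13 mitochondrial and by 76 nuclear members.

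RNA of 3 B16F10 lines was sequenced, 3 libraries of each: a line with a non-targeting control (SIRPA NTC), a line with SIRPA knockdown and a line with SIRPA overexpression. SIRPA is an inhibitory receptor best known on macrophages, where it binds CD47. All cells grew in the same serum-containing medium, and the libraries did not mark strand. Each condition is 1 line, its 3 libraries are described as biological repeats, and the labels do not say how a line was made or whether it is a clone. The p-values therefore reflect how repeats of the same line vary, not how independently made lines would. In bulk RNA, fewer cells with a transcript and less of it per cell cannot be told apart.

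Complexes I to IV pass electrons from NADH and succinate to oxygen, and complexes I, III and IV pump protons across the inner mitochondrial membrane. Complex V, the ATP synthase, uses the proton gradient to make ATP. The mitochondrial genome encodes only hydrophobic core subunits of complexes I, III, IV and V and is transcribed as long polycistronic precursors by its own polymerase. Complex II and every other subunit are nuclear, so each mixed complex needs the output of both genomes. Melanoma cells are known to vary in how far they use this pathway beside glycolysis, and the coactivator encoded by Ppargc1a is a known driver of it in part of them.

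Depth was 16404396 to 22379203 estimated counts per library. Levels are given as CPM, counts per 1000000 with TMM-scaled library sizes, and changes as log2 fold change ± SE with 3 libraries per line. Adjusted p-values come from edgeR's quasi-likelihood test over 13064 genes. The SE was computed from the log2 fold change and the F statistic of this test, with the spread estimated over all 9 libraries. A gene was called when its adjusted p was under 0.05. Of the 13064 genes, 2976 had every knockdown library above every control library, and 3005 had every one below. For overexpression against control these numbers were 2705 and 2577, and for overexpression against knockdown 2341 and 2348. A lack of overlap between lines was therefore common among all genes. Sirpa itself was at 292, 289 and 303 CPM in control, 118, 112 and 115 in knockdown and 895, 898 and 914 in overexpression libraries, as the line names say. All 10 melanocyte markers examined were expressed. They summed to 17800 to 17900 CPM in control, 17200 to 17800 in knockdown and 19400 to 19800 in overexpression libraries. In knockdown 5 of them were called lower (50%, against 17.4% of all genes) and 1 higher (10%, against 18%). In overexpression 2 were lower (20%, against 11.1%) and 4 higher (40%, against 13.1%). Between the 2 perturbed lines, 7 were higher in overexpression (70%, against 11%) and 0 were lower (against 11.1%). Macrophage markers summed to at most 4.8 CPM, with Ptprc and Adgre1 among 8 at 0 counts in every library, and 5 of 6 T and NK markers (Cd3e, Cd3d, Cd8a, Ncr1 and Nkg7) were at 0. The 6 fibroblast markers, which mesenchymal tumour cells can also express, summed to 64.1 to 67 CPM in control, 17.2 to 19 in knockdown and 73.3 to 82.4 in overexpression libraries. The 5 endothelial markers summed to 262 to 278, 343 to 379 and 290 to 308 CPM in the same order, with Cdh5 and Kdr at 0 and only Eng past the filter. Of the 5 epithelial markers Epcam, Krt8, Krt18 and Krt14 were at 0 counts. The part of these markers in the results below was not tested.

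Several mitochondrial members have near-identical copies in the nuclear genome, and the sequences show why reads cannot be assigned between them. In the GENCODE M21 transcripts, the pseudogene Gm28661 on chromosome 1 holds 681 bases identical to mt-Co2, which has 684. The ends of both transcripts are shown 5′ to 3′, with the bases that only mt-Co2 has in capitals (its stop codon):
mt-Co2: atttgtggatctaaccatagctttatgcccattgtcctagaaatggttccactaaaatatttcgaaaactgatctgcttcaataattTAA
Gm28661: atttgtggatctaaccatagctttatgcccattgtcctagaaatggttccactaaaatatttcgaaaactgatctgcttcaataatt

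The copy Gm10222 of mt-Nd4l, the smallest mitochondrial complex I subunit, is identical over its 294 bases. The whole mt-Nd4l transcript of 297 bases is shown, with the bases outside the copy in capitals:
mt-Nd4l: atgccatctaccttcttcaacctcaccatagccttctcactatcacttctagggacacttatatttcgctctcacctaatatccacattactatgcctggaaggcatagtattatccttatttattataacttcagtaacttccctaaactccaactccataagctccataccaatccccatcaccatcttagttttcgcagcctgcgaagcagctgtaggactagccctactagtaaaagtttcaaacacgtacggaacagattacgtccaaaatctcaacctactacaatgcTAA

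The same holds for mt-Atp6 and Gm10925 (678 identical bases of 681) and for mt-Co3 and Gm28437 (783 of 784). mt-Nd3 and Gm28438 differ at 1 of 345 aligned bases, T3C, counted from the first base of mt-Nd3. Gm28439 is identical to 876 of the 1378 bases of mt-Nd4 but was listed at 0 counts in every library. A second source of shared reads is overlap within the mitochondrial genome. The last 43 bases of mt-Atp8 are the first 43 of mt-Atp6, shown in capitals, and mt-Nd4l overlaps mt-Nd4 by 7 bases:
mt-Atp8, last bases: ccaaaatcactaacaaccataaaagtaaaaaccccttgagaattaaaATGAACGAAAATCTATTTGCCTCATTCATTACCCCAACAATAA
mt-Atp6, first bases: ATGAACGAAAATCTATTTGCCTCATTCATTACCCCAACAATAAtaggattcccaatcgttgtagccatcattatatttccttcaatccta

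The deposited estimates divided these reads very unevenly between libraries. Of the counts of mt-Co2 and Gm28661 together, 74.2% to 94.7% were assigned to the copy. The copy's share was 14.3% to 67.4% for mt-Atp6, 0% to 76.4% for mt-Nd4l, 4.10% to 24.8% for mt-Co3 and 0.833% to 4.37% for mt-Nd3. Subunit 2 of cytochrome c oxidase, mt-Co2, was assigned 218, 228 and 456 CPM in the control libraries, 209, 915 and 348 in the knockdown libraries and 414, 479 and 661 in the overexpression libraries. These libraries overlapped between all lines, and 1 knockdown library had over 4 times the level of another. With the copy added, mt-Co2 stood at 3459, 3442 and 3387 CPM in the control libraries, 3949, 3552 and 4071 in the knockdown libraries and 3840, 4111 and 3724 in the overexpression libraries. Every library of the knockdown and overexpression lines then lay above every control library, and the largest coefficient of variation within a line was 7.03%. The counts of such copies were therefore also summed into the member, an alternative chosen after the spread of these genes was seen.

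**Figure D1:**
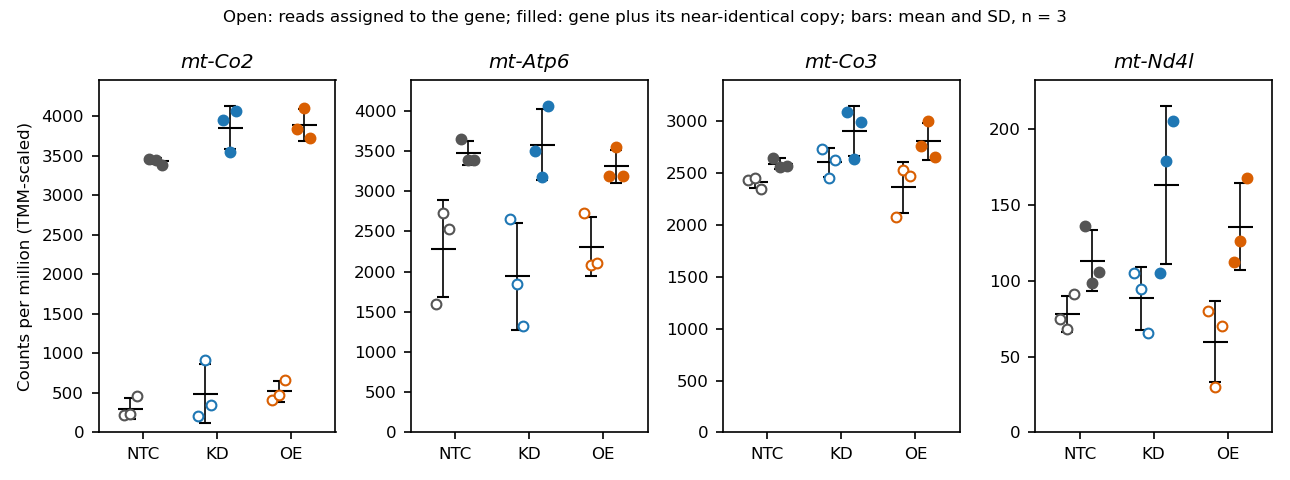
CPM of 4 mitochondrial genes in each library of the control (NTC), knockdown (KD) and overexpression (OE) lines, as deposited (open points) and with the near-identical copy added (filled points), with mean and SD of 3 libraries. For mt-Co2 the open points lie between 209 and 915 CPM and the filled points between 3387 and 4111, where both perturbed lines lie above the control line.

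Per length, the mitochondrial members were among the most abundant, with means from 1434 to 7617 TPM. Mean TPM (a share of all transcripts that corrects for length) over the 9 libraries was 7617 for mt-Atp6, 7613 for mt-Co1, 6805 for mt-Co3 and 5817 for mt-Cytb. The complex I genes followed at 4514 for mt-Nd3, 4198 for mt-Nd1, 2819 for mt-Nd4, 1957 for mt-Nd4l, 1907 for mt-Nd2, 1496 for mt-Nd6 and 1434 for mt-Nd5. mt-Atp8 had 3600 TPM and mt-Co2, without its copy, 1504 TPM. The order among mt-Atp6, mt-Co1 and mt-Co3 is not resolved, since single libraries of mt-Atp6 ranged from 4523 to 9739 TPM. The place of mt-Co2 is not resolved either, since its copy took 74.2% to 94.7% of their joint counts. Its 1504 TPM therefore does not place it among the lower members. The values of mt-Atp6, mt-Co3, mt-Nd3 and mt-Nd4l also leave out reads assigned to their copies. mt-Nd6 is the only one of the 13 encoded on the light strand, and without strand its reads cannot be told apart from antisense transcripts.

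Tested nuclear members spanned 15.8 to 2915 TPM, and 3 of them reached the mitochondrial range: Atp5b, the catalytic beta subunit of complex V, at 2915 TPM, Atp5mpl at 1852 and Ndufa4 at 1483. In the other complexes the highest members were Ndufa4 in complex I, Cox6c at 1115, Uqcr10 at 1076 and Sdhb at 444. The lowest tested member of each complex was Atp5s, coupling factor B of complex V, at 15.8 TPM, Ndufb4 at 68.8, Sdhc at 139, Uqcrc2 at 159.7 and Cox7a2l at 213. The value of Ndufb4 leaves out reads assigned to its processed copy Ndufb4c, which took 40.5% to 56.1% of their joint counts. Atp5g2, which codes for the ring subunit c, was at 119.5 TPM, and its transcribed copy Gm10175 took 77% to 86.3% of the joint counts.

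Tissue-restricted isoforms were near or at 0. Cox4i2, Cox6b2, Cox7b2, Cox8b and Cox8c had 0 counts in all 9 libraries. The heart and muscle isoforms Cox6a2 and Cox7a1 had 13 and 19 counts over all libraries together, and Ndufa4l2, a paralogue known from hypoxia, had 23. Their partners Cox4i1, Cox6a1, Cox6b1, Cox7a2, Cox7b, Cox8a and Ndufa4 were all expressed. A second gene entry named Atp5o (ENSMUSG00000116933), most of whose sequence is shared with Donson, had 10 counts. These 9 genes were not tested, and a count of 0 allows up to 3 counts per library, for counting error only.

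**Figure D2:**
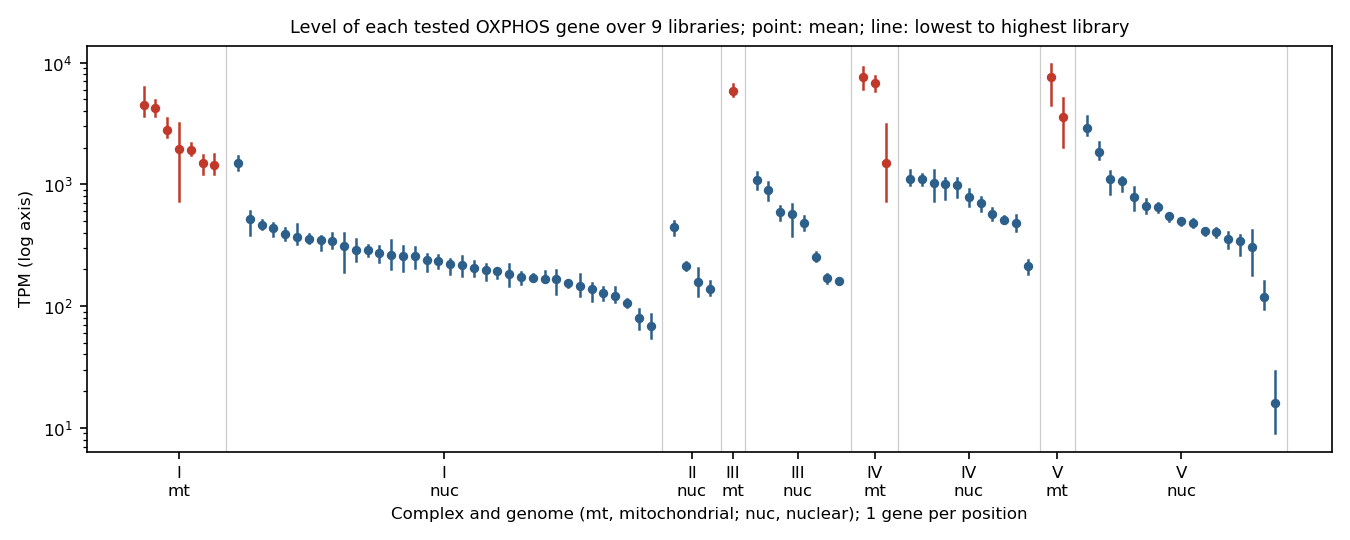
TPM of the 89 tested genes, with the mean over 9 libraries as a point and the range from lowest to highest library as a line, on a log axis, grouped by complex and genome. Most mitochondrial genes (red) lie above the nuclear genes (blue) of the same complex, and Atp5s is lowest with a mean of 15.8 TPM.

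In the knockdown line, mitochondrial members were called higher and nuclear members more often lower than higher. Of 13 mitochondrial members 6 rose and 0 fell, a share of 46.2% against 18% of all genes tested that rose (median log2 fold change 0.18 against -0.008 over all genes). Of 76 nuclear members 9 rose (11.8%, against 18%) and 22 fell (28.9%, against 17.4%), with a median of -0.105 (log2). With copies summed, 9 of 13 mitochondrial members rose and 0 fell, where 18.1% of all genes rose. Without any single library, the mitochondrial count stayed between 6 and 8 and the nuclear count between 25 and 34. With limma on log2(TPM + 1), which moved the median of all genes to 0.049 and the split of all genes from 2345 higher and 2274 lower to 1607 and 896, the nuclear split was 5 higher and 6 lower, and with a transcript length offset 5 higher and 14 lower. Where the call of a gene named in the text was lost with either, its log2 fold change there is given in parentheses at the end of its paragraph, with the value from the length offset first where both are given.

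In the overexpression line, mitochondrial members were again called higher, while nuclear members were called in both directions. Of 13 mitochondrial members 5 rose (38.5%, against 13.1% of all genes) and 0 fell (11.1% of all genes fell), with a median of 0.138. Of 76 nuclear members 11 rose (14.5%, against 13.1%) and 6 fell (7.89%, against 11.1%), with a median of 0.008. In either direction 22.4% of the nuclear members were called, near the 24.3% of all genes. With copies summed, 6 mitochondrial members rose and 0 fell, against 13.2% of all genes. The mitochondrial count fell to 3 without control replicate 2, control replicate 3 or overexpression replicate 2. The nuclear count was 7 without control replicate 3 and 11 without control replicate 1 or 2 or overexpression replicate 1 or 2. It was 4 (3 higher, 1 lower) with either a transcript length offset or limma on log2(TPM + 1), and the latter split all genes into 883 higher and 398 lower, against 1716 and 1456. The comparisons of the knockdown and overexpression lines share the control libraries.

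Compared directly, overexpression against knockdown, the lines differed in nuclear members, and edgeR called 0 mitochondrial members. Of the nuclear members 18 were higher (23.7%, against 11% of all genes) and 3 were lower in the overexpression line (3.95%, against 11.1%), with a median of 0.099 (log2). The count was 12 without overexpression replicate 1 and 13 without overexpression replicate 3. With a transcript length offset 10 were higher and 1 lower, and with limma on log2(TPM + 1) 2 were higher and 0 lower. Of the 13 mitochondrial members 0 were called, against 22.1% of all genes called in either direction, and 5 had an unadjusted p under 0.05, all lower in the overexpression line. DESeq2 called 3 and limma-voom 1, all lower. Leaving out knockdown replicate 2 raised the count to 7 (1 higher, 6 lower), and leaving out overexpression replicate 2, knockdown replicate 3 or overexpression replicate 1 gave 3, 2 and 1.

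Summed per library, the 13 mitochondrial members made up 56.1, 57.7 and 57.1% of the TPM of all members in control, 60.6, 59.7 and 61.8% in knockdown and 56.9, 59.02 and 58.9% in overexpression libraries. All knockdown libraries lay above all control libraries, whereas 1 overexpression library lay within the control range. The means were 56.95 ± 0.771 in control, 60.7 ± 1.09 in knockdown and 58.3 ± 1.21 in overexpression libraries (SD, n = 3). With copies summed they were 63.3 ± 0.775 in control, 67.1 ± 2.55 in knockdown and 64.8 ± 1.77 in overexpression libraries (SD, n = 3). Summed TPM of the mitochondrial members was 47670 ± 2070 in control, 54140 ± 2550 in knockdown and 52030 ± 466 in overexpression libraries (SD, n = 3), and that of the nuclear members was 36010 ± 837 in control, 35080 ± 2220 in knockdown and 37260 ± 1550 in overexpression libraries (SD, n = 3). Within the knockdown line the nuclear sum ranged from 32710 in replicate 3 to 37090 in replicate 1, so the 3 lines overlapped.

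By complex, the nuclear sums of complexes III and IV were lowest in the knockdown line. Complex III summed to 4265 ± 126 in control, 3916 ± 240 in knockdown and 4385 ± 304 in overexpression libraries (SD, n = 3) in TPM. Complex IV summed to 8647 ± 198 in control, 7961 ± 496 in knockdown and 8950 ± 317 in overexpression libraries (SD, n = 3), and here all knockdown libraries lay below all control and overexpression libraries. This sum leaves out Ndufa4, which its symbol places in complex I here, and the separation was not examined with it. Complex I summed to 9690 ± 206 in control, 9780 ± 445 in knockdown and 10360 ± 442 in overexpression libraries (SD, n = 3), complex II to 936 ± 11.3 in control, 938 ± 12.7 in knockdown and 994 ± 28.2 in overexpression libraries (SD, n = 3) and complex V to 12470 ± 381 in control, 12480 ± 1080 in knockdown and 12570 ± 553 in overexpression libraries (SD, n = 3). For complexes I and V the control and knockdown libraries overlapped. All overexpression libraries of complex I lay above control but overlapped knockdown, and for complex II all overexpression libraries lay above the rest. No test was made on sums over chosen genes.

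**Figure D3:**
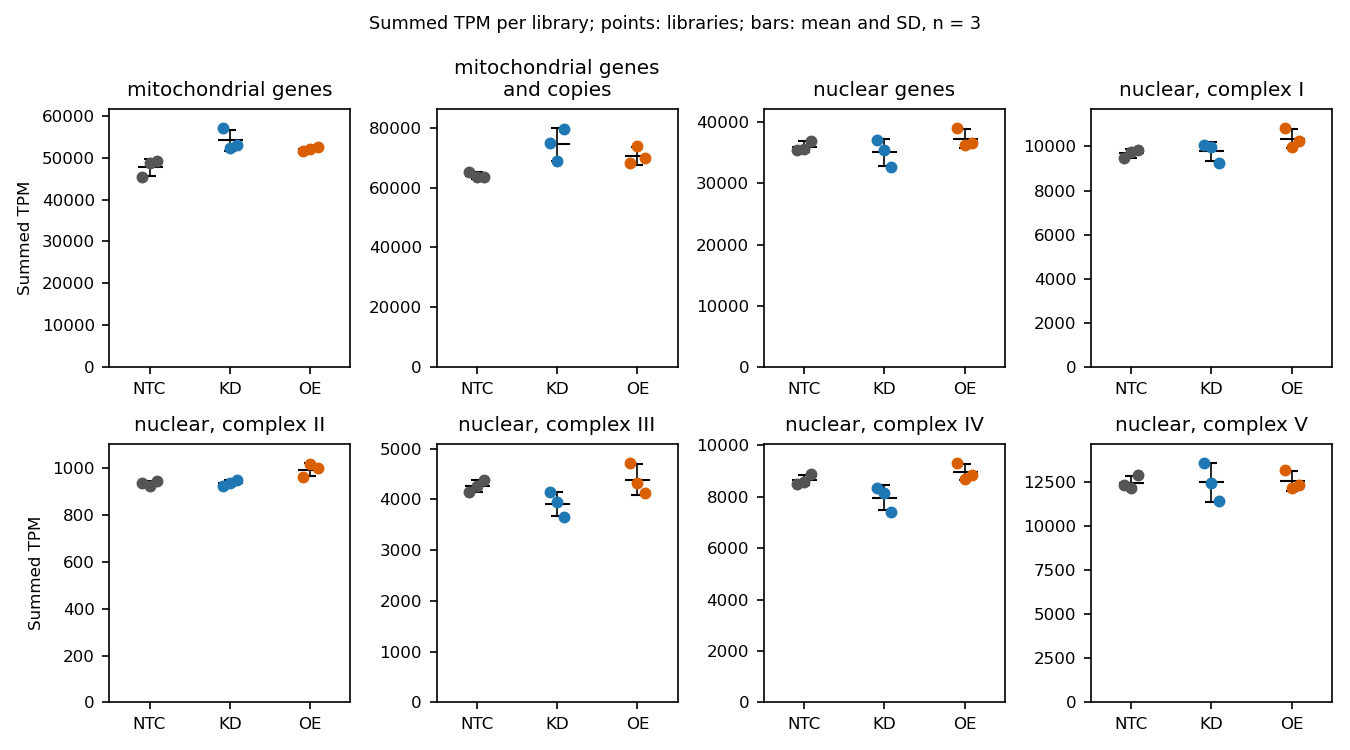
Summed TPM per library (points) of mitochondrial members, of mitochondrial members with their copies, of nuclear members and of nuclear members by complex, with mean and SD of 3 libraries of the control (NTC), knockdown (KD) and overexpression (OE) lines. Mitochondrial sums went from a mean of 47670 in control to 54140 in knockdown and 52030 in overexpression libraries, while complex IV went from 8647 in control to 7961 in knockdown libraries.

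Complex I, the NADH dehydrogenase, has 7 mitochondrial members, and 4 of them rose in both lines. mt-Nd5, at the far end of the membrane arm, was at 1390, 1399 and 1378 CPM in the control libraries, 1719, 1564 and 1893 in the knockdown libraries and 1607, 1688 and 1622 in the overexpression libraries. It rose by 0.31 ± 0.05 (adjusted p = 0.000147) in knockdown and by 0.24 ± 0.05 (adjusted p = 0.00247) in overexpression, with no overlap with control in either line. mt-Nd6 was at 222, 210 and 212 CPM in the control libraries, 251, 265 and 319 in the knockdown libraries and 255, 293 and 285 in the overexpression libraries. Its rise was 0.37 ± 0.07 (adjusted p = 0.000746) in knockdown and 0.37 ± 0.07 (adjusted p = 0.00136) in overexpression, again with no overlap. mt-Nd4 rose by 0.27 ± 0.06 (adjusted p = 0.00125) and 0.18 ± 0.06 (adjusted p = 0.0282) and mt-Nd1 by 0.25 ± 0.05 (adjusted p = 0.000469) and 0.14 ± 0.05 (adjusted p = 0.0374). In overexpression, the call of mt-Nd4 was lost without control library 1 or 2 or 3, or overexpression library 2 (adjusted p up to 0.144), and that of mt-Nd1 without control library 2 or 3, or overexpression library 2 or 3 (adjusted p up to 0.173). mt-Nd4 (0.167 and 0.212) and mt-Nd1 (0.122 and 0.168) lost their overexpression calls both with a transcript length offset and with limma on log2(TPM + 1). mt-Nd5 (0.276) lost its overexpression call with limma on log2(TPM + 1). In overexpression, calls were also lost for mt-Nd1 with the replicate block, and for mt-Nd4 with DESeq2.

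The other mitochondrial complex I members were not called as deposited. mt-Nd2 differed by 0.03 ± 0.06 (adjusted p = 0.72) in knockdown and -0.07 ± 0.06 (adjusted p = 0.489) in overexpression, and mt-Nd3 by 0.04 ± 0.07 (adjusted p = 0.687) and -0.12 ± 0.07 (adjusted p = 0.211), where all overexpression libraries of mt-Nd3 lay below control. mt-Nd4l was at 74.6, 67.96 and 91.5 CPM in the control libraries, 105, 94.6 and 65.3 in the knockdown libraries and 79.97, 29.8 and 69.9 in the overexpression libraries, with changes of 0.18 ± 0.24 (adjusted p = 0.611) and -0.38 ± 0.24 (adjusted p = 0.3). With its copy, mt-Nd4l was at 136, 98.5 and 106 CPM in the control libraries, 105, 179 and 205 in the knockdown libraries and 112, 126 and 168 in the overexpression libraries, and the knockdown difference of 0.52 ± 0.19 (adjusted p = 0.0376) was called although 1 knockdown library lay within the control range. The overexpression difference was 0.26 ± 0.19 (adjusted p = 0.357).

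Nuclear complex I members were called in both directions in the knockdown line, 6 of 36 higher (16.7%, against 18% of all genes) and 5 lower (13.9%, against 17.4%), shares below those of all genes. The largest rise was in Ndufa5, an accessory subunit of the matrix arm, at 84.6, 89.96 and 88.1 CPM in the control libraries, 127, 121 and 101 in the knockdown libraries and 121, 116 and 117 in the overexpression libraries. It rose by 0.41 ± 0.07 (adjusted p = 0.000225) in knockdown and by 0.43 ± 0.07 (adjusted p = 0.000269) in overexpression, and all libraries of both lines lay above control. The matrix-arm subunits Ndufa12 (0.28), Ndufs4 (0.25), Ndufa7 (0.24) and Ndufv2 (0.19) and the membrane-arm subunit Ndufc1 (0.31) also rose, on the log2 scale. The call of Ndufa7 was lost without control library 2, or knockdown library 2 (adjusted p up to 0.0869). Ndufv2 carries an iron-sulphur cluster of the NADH-oxidising module, and stood at 116, 115 and 109 CPM in the control libraries, 134, 130.5 and 124 in the knockdown libraries and 116, 117 and 118 in the overexpression libraries. Ndufa12 (0.202 and 0.256), Ndufa7 (0.109 and 0.176) and Ndufc1 (0.218 and 0.267) lost their knockdown calls both with a transcript length offset and with limma on log2(TPM + 1). Ndufv2 moved to 0.313 in knockdown with limma on log2(TPM + 1).

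The falls in the knockdown line included a catalytic subunit. Ndufs1, which carries iron-sulphur clusters of the NADH-oxidising module, was at 248, 239.8 and 248 CPM in the control libraries, 195, 179 and 193 in the knockdown libraries and 256, 253 and 239.9 in the overexpression libraries. It fell by 0.38 ± 0.04 (adjusted p = 6.51e-06) on the log2 scale against control, and overexpression differed from knockdown by 0.40 ± 0.04 (adjusted p = 6.92e-06). All 3 knockdown libraries lay below the other 6, which overlapped.

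Ndufa1, a small membrane-arm subunit encoded on the X chromosome, had the largest fall of the 76, and was at 34.7, 35.6 and 35.5 CPM in the control libraries, 24.5, 26.1 and 21.9 in the knockdown libraries and 35.4, 26.9 and 44.1 in the overexpression libraries. The change was -0.55 ± 0.13 (adjusted p = 0.00414) in knockdown and 0.01 ± 0.13 (adjusted p = 0.973) in overexpression, where the libraries, from 26.9 to 44.1 CPM, overlapped control. The membrane-arm subunits Ndufb7 (-0.38 ± 0.08, adjusted p = 0.00137) and Ndufb8 (-0.17 ± 0.05, adjusted p = 0.0201) fell as well, the latter not without control library 2 or 3, or knockdown library 1 or 3 (adjusted p up to 0.103). In the overexpression line 4 of 36 rose (11.1%, against 13.1% of all genes) and 0 fell: Ndufa5, Ndufs6, a zinc-binding accessory subunit (0.34 ± 0.08, adjusted p = 0.00391), Ndufa4 (0.22 ± 0.04, adjusted p = 0.00146) and Ndufc1 (0.20 ± 0.07, adjusted p = 0.0436). The call of Ndufc1 was lost without control library 2 or 3, or overexpression library 1 or 2 or 3 (adjusted p up to 0.177), and its sign turned with a transcript length offset (-0.02). Ndufa4 was long listed with complex I and is now counted with complex IV. It was at 320.5, 320 and 313 CPM in the control libraries, 352, 328 and 318 in the knockdown libraries and 388, 366 and 359 in the overexpression libraries, and only the overexpression libraries all lay above control. Ndufb8 (-0.145) lost its knockdown call with limma on log2(TPM + 1). Ndufs6 (0.309 and 0.355) and Ndufa4 (0.215 and 0.259) lost their overexpression calls both with a transcript length offset and with limma on log2(TPM + 1). Ndufc1 (0.001) lost its overexpression call with limma on log2(TPM + 1). In overexpression, calls were also lost for Ndufc1 with no filter on low counts, and for Ndufc1 with the replicate block.

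Between the perturbed lines, 6 nuclear complex I members were higher in overexpression (16.7%, against 11% of all genes) and 1 was lower (2.78%, against 11.1%). Ndufa1 (0.55) and Ndufs1 (0.40) differed most, and others called were the FMN-binding Ndufv1 (0.30), Ndufb5 (0.19) and Ndufa4 (0.16), all in log2 units. Ndufv2 was lower (-0.15 ± 0.05, adjusted p = 0.0417). The call of Ndufb5 was lost without control library 3, or knockdown library 1, or overexpression library 1 or 2 (adjusted p up to 0.162), that of Ndufa4 without knockdown library 3, or overexpression library 1 (adjusted p up to 0.12) and that of Ndufv2 without control library 1 or 2, or knockdown library 1 or 2, or overexpression library 1 or 2 or 3 (adjusted p up to 0.129). Ndufv1 was not called against control in either line, although all overexpression libraries lay above control, at 72.6, 75.6 and 79.6 CPM in the control libraries, 69.8, 72.8 and 60.2 in the knockdown libraries and 80.5, 85.9 and 83.8 in the overexpression libraries. Ndufb5 (0.126 and 0.104), Ndufa4 (0.153 and 0.134) and Ndufv2 (-0.185 and -0.204) lost their between-line calls both with a transcript length offset and with limma on log2(TPM + 1). Ndufa1 (0.586) lost its between-line call with limma on log2(TPM + 1). Between the lines, calls were also lost for Ndufv2 with no filter on low counts, for Ndufb5 and Ndufv2 with a fit of only the 2 lines compared, and for Ndufb5 and Ndufv2 with the replicate block.

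**Figure D4:**
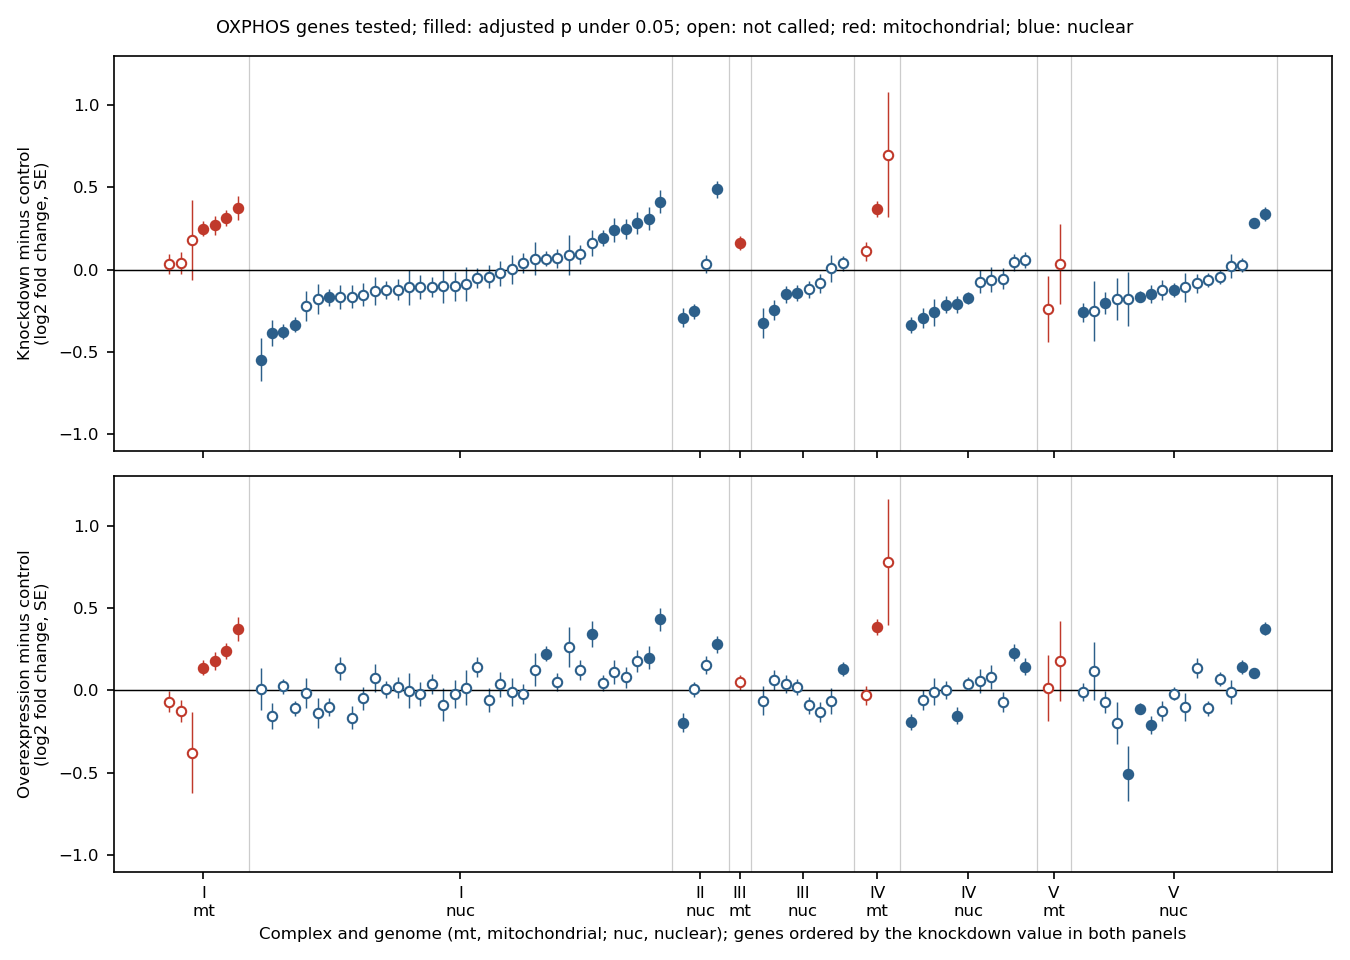
log2 fold change with SE of the 89 tested genes against control in knockdown (upper panel) and overexpression (lower panel), grouped by complex and genome and ordered by the knockdown value in both panels. Filled points were called, and mt-Co2 as deposited (0.70 and 0.78) has a wide SE. In knockdown the called genes of nuclear complexes III and IV are all below 0.

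Complex II is succinate dehydrogenase and has no mitochondrially encoded subunit. Its 4 genes parted in the knockdown line. Sdha, the flavoprotein that oxidises succinate, was at 231, 233 and 232 CPM in the control libraries, 336, 343 and 297 in the knockdown libraries and 289, 266 and 289.7 in the overexpression libraries. It rose by 0.49 ± 0.05 (adjusted p = 2.14e-06) in knockdown and by 0.28 ± 0.05 (adjusted p = 0.000913) in overexpression, the knockdown libraries lying highest, the control libraries lowest and the overexpression libraries between. Sdhb, its iron-sulphur partner, was at 292, 282 and 294 CPM in the control libraries, 242, 232 and 255 in the knockdown libraries and 282, 306 and 285 in the overexpression libraries. The change of Sdhb was -0.25 ± 0.05 (adjusted p = 0.000406) in knockdown, with all libraries below control, and 0.01 ± 0.05 (adjusted p = 0.937) in overexpression. Sdhb (-0.199) lost its knockdown call with limma on log2(TPM + 1).

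Of the membrane anchors, Sdhc was at 119, 119 and 129.6 CPM in the control libraries, 102, 102 and 95.8 in the knockdown libraries and 104, 113 and 104 in the overexpression libraries. Sdhc changed by -0.29 ± 0.06 (adjusted p = 0.000721) in knockdown and -0.20 ± 0.06 (adjusted p = 0.0178) in overexpression, below all control libraries in both lines. The overexpression call was lost without control library 3, or overexpression library 1 or 3 (adjusted p up to 0.0954). The other anchor, Sdhd, differed by 0.03 ± 0.06 (adjusted p = 0.685) and 0.15 ± 0.06 (adjusted p = 0.0535). Overexpression against knockdown was -0.21 ± 0.05 (adjusted p = 0.00768) for Sdha and 0.26 ± 0.05 (adjusted p = 0.000628) for Sdhb, opposite in sign. Sdhc (-0.226) lost its knockdown call with limma on log2(TPM + 1). Sdhc (-0.214 and -0.167) lost its overexpression call both with a transcript length offset and with limma on log2(TPM + 1). Sdha (-0.294) and Sdhb (0.238) lost their between-line calls with limma on log2(TPM + 1).

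In complex III, ubiquinol-cytochrome c reductase, the mitochondrial and the nuclear members moved apart in the knockdown line. mt-Cytb, its mitochondrial cytochrome b, was at 3575, 3383 and 3319 CPM in the control libraries, 3857, 3577 and 4058 in the knockdown libraries and 3459, 3717 and 3457 in the overexpression libraries. It rose by 0.16 ± 0.04 (adjusted p = 0.00837) in knockdown, where all libraries lay above control by a narrow margin, and was 0.05 ± 0.04 (adjusted p = 0.467) in overexpression. Of 8 nuclear members 4 fell in knockdown (50%, against 17.4% of all genes) and 0 rose. Uqcrq, a small subunit that contacts cytochrome b, was at 191, 177 and 196 CPM in the control libraries, 162, 169 and 145 in the knockdown libraries and 212, 190.2 and 186 in the overexpression libraries. Its change was -0.24 ± 0.06 (adjusted p = 0.00592) in knockdown and 0.06 ± 0.06 (adjusted p = 0.526) in overexpression, and the 2 lines differed by 0.31 ± 0.06 (adjusted p = 0.00207). mt-Cytb (0.15 and 0.215) and Uqcrq (-0.089 and -0.017) lost their knockdown calls both with a transcript length offset and with limma on log2(TPM + 1). Uqcrq (0.286) lost its between-line call with limma on log2(TPM + 1).

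The other falls were Uqcr11 (-0.32 ± 0.09, adjusted p = 0.00971), Uqcr10 (-0.15 ± 0.05, adjusted p = 0.034) and Uqcrfs1, the Rieske iron-sulphur protein (-0.14 ± 0.05, adjusted p = 0.0291). In all of these the knockdown libraries lay below control. The call of Uqcr11 was lost without control library 3 (adjusted p up to 0.0605), that of Uqcr10 without control library 1 or 2, or knockdown library 1, or overexpression library 3 (adjusted p up to 0.177) and that of Uqcrfs1 without control library 1 or 2 or 3, or knockdown library 3 (adjusted p up to 0.128). The same 4 genes were higher in overexpression than in knockdown (50% of 8, against 11% of all genes) and 0 were lower (against 11.1%). Of the 4, Uqcr11 was not called without control library 1 or 2 or 3, or knockdown library 1 or 3, or overexpression library 1 or 2 or 3 (adjusted p up to 0.201), Uqcr10 not without knockdown library 1, or overexpression library 1 or 3 (adjusted p up to 0.0922) and Uqcrfs1 not without knockdown library 3, or overexpression library 2 or 3 (adjusted p up to 0.101). In overexpression only the core protein gene Uqcrc1 rose (0.13 ± 0.04, adjusted p = 0.037), not without control library 1 or 2 or 3, or overexpression library 2 or 3 (adjusted p up to 0.149). The other core protein gene, Uqcrc2, was not called in any comparison. Uqcr11 (-0.438 and -0.387), Uqcr10 (-0.277 and -0.214) and Uqcrfs1 (-0.148 and -0.082) lost their knockdown calls both with a transcript length offset and with limma on log2(TPM + 1). In knockdown, calls were also lost for Uqcrfs1 with no filter on low counts, and for Uqcr10 with the replicate block. Uqcrc1 (0.122 and 0.167) lost its overexpression call both with a transcript length offset and with limma on log2(TPM + 1). Uqcr11 (0.316 and 0.311), Uqcr10 (0.263 and 0.241) and Uqcrfs1 (0.16 and 0.14) lost their between-line calls both with a transcript length offset and with limma on log2(TPM + 1). Between the lines, calls were also lost for Uqcr11 with a fit of only the 2 lines compared, and for Uqcr11 with the replicate block.

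Complex IV, cytochrome c oxidase, has a catalytic core of 3 mitochondrial subunits, and all 3 were called higher in knockdown with copies summed. mt-Co1 carries the heme and copper site where oxygen is reduced and, although 63.9% of its 31-base words also occur in other genes, its copy Gm29216 took at most 0.0511% of their joint counts and Gm13340 at most 0.0294%. It was at 6007, 5610 and 5615 CPM in the control libraries, 7241, 6940 and 8067 in the knockdown libraries and 7199, 8040 and 7286 in the overexpression libraries. It rose by 0.37 ± 0.05 (adjusted p = 2.72e-05) in knockdown and 0.39 ± 0.05 (adjusted p = 3.07e-05) in overexpression, with every library of both lines above every control library. mt-Co2 differed by 0.70 ± 0.38 (adjusted p = 0.173) and 0.78 ± 0.38 (adjusted p = 0.159) as deposited, and with its copy by 0.17 ± 0.04 (adjusted p = 0.0056) and 0.18 ± 0.04 (adjusted p = 0.00532). mt-Co3 differed by 0.11 ± 0.06 (adjusted p = 0.154) and -0.03 ± 0.06 (adjusted p = 0.77) as deposited, and by 0.17 ± 0.05 (adjusted p = 0.0171) and 0.11 ± 0.05 (adjusted p = 0.114) with its copy, where 1 knockdown library lay within the control range.

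Nuclear complex IV members showed the opposite direction in knockdown, 6 of 11 lower (54.5%, against 17.4% of all genes) and 0 higher. Cox4i1, the main isoform of the largest nuclear subunit, was at 379, 385 and 376 CPM in the control libraries, 329.8, 352 and 329.7 in the knockdown libraries and 399.6, 388 and 385 in the overexpression libraries. It changed by -0.17 ± 0.04 (adjusted p = 0.00243) in knockdown, below all other libraries, and overexpression differed from knockdown by 0.21 ± 0.04 (adjusted p = 0.000853). Cox7a2l, known as an assembly factor of respiratory supercomplexes, was at 138, 135 and 138 CPM in the control libraries, 116, 107 and 103 in the knockdown libraries and 119, 119 and 122 in the overexpression libraries. It fell in both lines, with changes of -0.34 ± 0.05 (adjusted p = 7.42e-05) and -0.19 ± 0.05 (adjusted p = 0.0102). The remaining falls in knockdown were Cox8a (-0.29 ± 0.06, adjusted p = 0.00137), Cox5b (-0.26 ± 0.08, adjusted p = 0.0205), Cox6a1 (-0.21 ± 0.05, adjusted p = 0.00564) and Cox7b (-0.21 ± 0.05, adjusted p = 0.00426), which form small subunits around the core. The call of Cox5b was lost without control library 1 or 3, or knockdown library 1 or 3 (adjusted p up to 0.0965). Cox5b (-0.282 and -0.222) and Cox7b (-0.134 and -0.066) lost their knockdown calls both with a transcript length offset and with limma on log2(TPM + 1). Cox4i1 (-0.143), Cox8a (-0.307) and Cox6a1 (-0.22) lost their knockdown calls with limma on log2(TPM + 1). In knockdown, calls were also lost for Cox5b with DESeq2. Cox7a2l (-0.206 and -0.159) lost its overexpression call both with a transcript length offset and with limma on log2(TPM + 1). Cox4i1 (0.21) lost its between-line call with limma on log2(TPM + 1).

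In the overexpression line, Cox5a rose from 125, 122 and 122 CPM in control to 146, 139.7 and 147 CPM (0.23 ± 0.05, adjusted p = 0.00362), with 132, 131 and 118 CPM in knockdown. Cox6c rose by 0.14 ± 0.05 (adjusted p = 0.0441), not without control library 1 or 2 or 3, or knockdown library 3, or overexpression library 1 or 2 (adjusted p up to 0.23). Cox7b fell (-0.15 ± 0.05, adjusted p = 0.0378) together with Cox7a2l, Cox7b not without control library 1 or 3, or overexpression library 2 (adjusted p up to 0.189). Between the perturbed lines, 5 of 11 were higher in overexpression (45.5%, against 11% of all genes) and 0 were lower (against 11.1%). The 5 were Cox5b (0.25), Cox8a (0.23), Cox6a1 (0.22), Cox4i1 (0.21) and Cox5a (0.18), in log2 units. Of these, Cox5b was lost without control library 1 or 2 or 3, or knockdown library 1 or 3, or overexpression library 1 or 3 (adjusted p up to 0.197), Cox8a without knockdown library 3, or overexpression library 3 (adjusted p up to 0.0574), Cox6a1 without overexpression library 1 (adjusted p up to 0.0568) and Cox5a without knockdown library 3, or overexpression library 1 or 3 (adjusted p up to 0.088). The isoforms Cox6b1 and Cox7a2 and the gene Cox7c were not called in any comparison. Cox5a (0.216 and 0.26), Cox6c (0.105 and 0.146) and Cox7b (-0.049 and -0.002) lost their overexpression calls both with a transcript length offset and with limma on log2(TPM + 1). Cox5b (0.295 and 0.277), Cox8a (0.271 and 0.258), Cox6a1 (0.251 and 0.234) and Cox5a (0.222 and 0.208) lost their between-line calls both with a transcript length offset and with limma on log2(TPM + 1). Cox4i1 (0.21) lost its between-line call with limma on log2(TPM + 1). Between the lines, calls were also lost for Cox5b with a fit of only the 2 lines compared, for Cox5b with the replicate block, and for Cox5b with DESeq2.

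**Figure D5:**
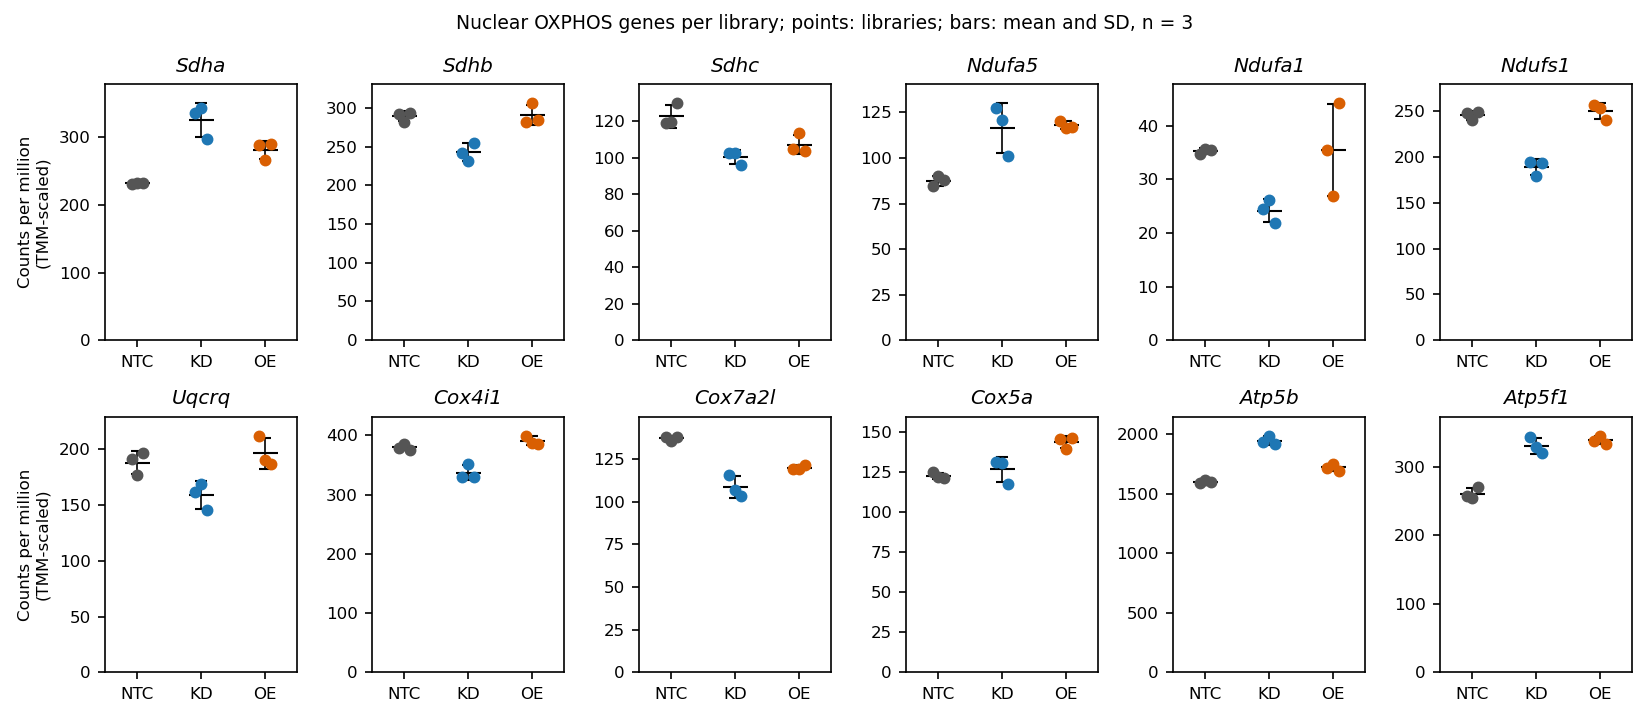
CPM of 12 nuclear members in each library (points) of the control (NTC), knockdown (KD) and overexpression (OE) lines, with mean and SD of 3 libraries and axes from 0. Sdha is highest in knockdown (297 to 343 CPM, control 231 to 233), whereas Ndufs1 and Cox4i1 are lowest there, and Atp5f1 and Ndufa5 are above control in both perturbed lines.

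In complex V, the mitochondrial members were not called. mt-Atp6, which forms the proton channel, was assigned 1601, 2732 and 2530 CPM in the control libraries, 2651, 1848 and 1322 in the knockdown libraries and 2735, 2088 and 2104 in the overexpression libraries, with overlap of all lines. Its differences were -0.24 ± 0.20 (adjusted p = 0.391) and 0.01 ± 0.20 (adjusted p = 0.973) as deposited, and 0.04 ± 0.06 (adjusted p = 0.642) and -0.07 ± 0.06 (adjusted p = 0.477) with its copy. mt-Atp8, whose transcript has 204 bases, was at 61.03, 53.1 and 59.7 CPM in the control libraries, 31.02, 70.2 and 77.8 in the knockdown libraries and 47.3, 65.96 and 84.02 in the overexpression libraries. Its differences were 0.03 ± 0.24 (adjusted p = 0.938) and 0.18 ± 0.24 (adjusted p = 0.655), and both SE values exceed those of most members.

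Subunits of the catalytic head differed from each other. Atp5b, the beta subunit, was at 1593, 1613 and 1597 CPM in the control libraries, 1933, 1986 and 1916 in the knockdown libraries and 1717, 1751 and 1691 in the overexpression libraries. It rose by 0.28 ± 0.03 (adjusted p = 2.43e-06) in knockdown and 0.10 ± 0.03 (adjusted p = 0.0195) in overexpression, with knockdown above overexpression by 0.18 ± 0.03 (adjusted p = 0.000479) on the log2 scale and no overlap among the 3 lines. The overexpression call was lost without control library 1 or 3, or overexpression library 1 or 2 (adjusted p up to 0.0708). Its partner in the catalytic ring, the alpha subunit gene Atp5a1, was at 888, 898 and 893 CPM in the control libraries, 781, 815 and 795 in the knockdown libraries and 829, 822 and 829.6 in the overexpression libraries. Atp5a1 went the other way, with -0.16 ± 0.03 (adjusted p = 0.000912) in knockdown and -0.11 ± 0.03 (adjusted p = 0.02) in overexpression, and lost the latter call without control library 1 or 2 or 3, or overexpression library 2 (adjusted p up to 0.0785). The delta and epsilon genes Atp5d (-0.12 ± 0.04, adjusted p = 0.0303) and Atp5e (-0.20 ± 0.07, adjusted p = 0.0301) fell in knockdown and were not called in overexpression, and Atp5c1, the gamma gene, was not called in any comparison. The libraries of Atp5e overlapped control. The call of Atp5d was lost without control library 1 or 2, or knockdown library 1 or 3 (adjusted p up to 0.167) and that of Atp5e without control library 1 or 3, or knockdown library 1 or 3 (adjusted p up to 0.137). Atp5b (0.209 and 0.266), Atp5a1 (-0.115 and -0.049) and Atp5e (-0.343 and -0.284) lost their knockdown calls both with a transcript length offset and with limma on log2(TPM + 1). Atp5d (-0.086) lost its knockdown call with limma on log2(TPM + 1). In knockdown, calls were also lost for Atp5d with no filter on low counts, and for Atp5d with a fit of only the 2 lines compared. Atp5b (0.011 and 0.057) and Atp5a1 (-0.091 and -0.045) lost their overexpression calls both with a transcript length offset and with limma on log2(TPM + 1). In overexpression, calls were also lost for Atp5b and Atp5a1 with no filter on low counts. Atp5b (-0.197 and -0.21) lost its between-line call both with a transcript length offset and with limma on log2(TPM + 1).

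Peripheral stalk genes also parted. Atp5f1, which encodes subunit b, was at 258, 255 and 271 CPM in the control libraries, 343, 328 and 319.8 in the knockdown libraries and 338, 346 and 334 in the overexpression libraries. It rose by 0.34 ± 0.04 (adjusted p = 8.84e-06) and 0.38 ± 0.04 (adjusted p = 5.82e-06), with all libraries of both lines above control. Atp5h, subunit d of the same stalk, changed by -0.15 ± 0.05 (adjusted p = 0.0426) and -0.21 ± 0.05 (adjusted p = 0.00847). In knockdown its libraries overlapped control. The knockdown call of Atp5h was lost without control library 1 or 3, or knockdown library 2 or 3, or overexpression library 1 or 2 or 3 (adjusted p up to 0.189), and the overexpression call without control library 3 (adjusted p up to 0.0513). Atp5o, which joins stalk and head, rose in overexpression (0.14 ± 0.04, adjusted p = 0.026), not without control library 2 or 3, or overexpression library 1 or 3 (adjusted p up to 0.12). Atp5h (-0.195 and -0.135) lost its knockdown call both with a transcript length offset and with limma on log2(TPM + 1). In knockdown, calls were also lost for Atp5h with a fit of only the 2 lines compared. Atp5h (-0.234 and -0.188) and Atp5o (0.123 and 0.169) lost their overexpression calls both with a transcript length offset and with limma on log2(TPM + 1).

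The 3 genes for ring subunit c encode the same mature protein. Atp5g3, the most abundant of them at 1064 TPM, was at 358, 344 and 361 CPM in the control libraries, 284, 328 and 277 in the knockdown libraries and 352, 337 and 368 in the overexpression libraries. It changed by -0.26 ± 0.06 (adjusted p = 0.00174) in knockdown and -0.01 ± 0.06 (adjusted p = 0.924) in overexpression, and the 2 lines differed by 0.25 ± 0.06 (adjusted p = 0.00402). Atp5g1 was higher in overexpression than in knockdown (0.22 ± 0.06, adjusted p = 0.0128), not without knockdown library 3, or overexpression library 1 or 3 (adjusted p up to 0.0713). Atp5g2 was not called, as deposited (-0.18 ± 0.13 (adjusted p = 0.308) in knockdown) or with its copy (0.07 ± 0.04, adjusted p = 0.179). Atp5s was at 8.88, 10 and 8.58 CPM in the control libraries, 8.52, 7.32 and 8.45 in the knockdown libraries and 6.04, 7.41 and 5.90 in the overexpression libraries, the lowest of the tested members, and its fall in overexpression (-0.51 ± 0.17, adjusted p = 0.0358) was lost without control library 1 or 2 or 3, or overexpression library 1 or 3 (adjusted p up to 0.124). Atp5g3 (-0.236) lost its knockdown call with limma on log2(TPM + 1). Atp5s moved to -1.318 in overexpression with a transcript length offset. Atp5s moved to -1.17 in overexpression with limma on log2(TPM + 1). In overexpression, calls were also lost for Atp5s with no filter on low counts, and for Atp5s with the replicate block. Atp5g3 (0.249) and Atp5g1 (0.242) lost their between-line calls with limma on log2(TPM + 1).

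Assembly factors, which build the complexes without staying in them, were followed from separate lists. In knockdown, 7 of 23 complex IV assembly factors fell (30.4%, against 17.4% of all genes) and 0 rose, with a median of -0.197 on the log2 scale. Those with the lowest adjusted p were Cox20 (-0.54 ± 0.12, adjusted p = 0.00275), the copper chaperone gene Sco2 (-0.53 ± 0.15, adjusted p = 0.0136) and Cox19 (-0.32 ± 0.10, adjusted p = 0.0167). The call of Sco2 was lost without control library 2 (adjusted p up to 0.0556). The call of Cox19 was lost without control library 1, or knockdown library 1 (adjusted p up to 0.0843). In overexpression 3 rose (13%, against 13.1%) and 2 fell (8.7%, against 11.1%), and those with the lowest adjusted p were Cox16 (-0.37 ± 0.09, adjusted p = 0.00519), Coa7 (0.36 ± 0.10, adjusted p = 0.0171) and Cox15 (0.21 ± 0.06, adjusted p = 0.028). The call of Coa7 was lost without control library 1 or 2, or overexpression library 1 or 2 (adjusted p up to 0.063). The call of Cox15 was lost without control library 2 or 3, or overexpression library 1 or 2 or 3 (adjusted p up to 0.111). Cox20 is known to chaperone mt-Co2 during assembly. Cox19 (-0.19 and -0.12) lost its knockdown call both with a transcript length offset and with limma on log2(TPM + 1). Cox16 (-0.229 and -0.179), Coa7 (0.149 and 0.201) and Cox15 (0.178 and 0.214) lost their overexpression calls both with a transcript length offset and with limma on log2(TPM + 1). In overexpression, calls were also lost for Cox15 with no filter on low counts.

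Of 17 complex I assembly factors found among 18 listed, 1 rose (5.88%, against 18% of all genes) and 4 fell (23.5%, against 17.4%) in knockdown, and 1 rose (5.88%, against 13.1%) and 0 fell in overexpression. Acad9, an acyl-CoA dehydrogenase relative needed to assemble the membrane arm, was at 43.8, 46 and 42.7 CPM in the control libraries, 67.9, 62.8 and 60.2 in the knockdown libraries and 56.5, 52.6 and 53.5 in the overexpression libraries. It rose by 0.53 ± 0.07 (adjusted p = 2.05e-05) and 0.30 ± 0.07 (adjusted p = 0.00527), with no overlap among the 3 lines. The next by adjusted p in knockdown were Timmdc1 (-0.38 ± 0.11, adjusted p = 0.0103) and Ndufaf8 (-0.53 ± 0.17, adjusted p = 0.0211). The call of Timmdc1 was lost without control library 3 (adjusted p up to 0.0768). The call of Ndufaf8 was lost without control library 3, or knockdown library 2 or 3 (adjusted p up to 0.0906). In complex II Sdhaf1 fell (-0.56 ± 0.14, adjusted p = 0.00435) and Sdhaf2 rose (0.25 ± 0.07, adjusted p = 0.0126) in knockdown. Each is 1 of 4 factors (25%, against 17.4% of all genes that fell and 18% that rose). In overexpression 0 of 4 were called, against 24.3% of all genes. The call of Sdhaf2 was lost without knockdown library 3 (adjusted p up to 0.0625). In complex III 1 of 6 rose (16.7%, against 18%) and 2 fell (33.3%, against 17.4%) in knockdown: Uqcc1 (-0.31 ± 0.08, adjusted p = 0.00488), Ttc19 (-0.40 ± 0.12, adjusted p = 0.0153) and Uqcc2 (0.29 ± 0.09, adjusted p = 0.0233). The call of Ttc19 was lost without control library 2, or knockdown library 3 (adjusted p up to 0.11). The call of Uqcc2 was lost without control library 2, or knockdown library 2 (adjusted p up to 0.118). Of the 5 complex V factors 0 were called in any comparison. Of all genes 35.4% were called in knockdown, 24.3% in overexpression and 22.1% between the perturbed lines, and 5 genes are few for such a comparison. Acad9 (0.346 and 0.395), Timmdc1 (-0.38 and -0.293), Ndufaf8 (-0.515 and -0.439), Uqcc1 (-0.116 and -0.057) and Uqcc2 (0.194 and 0.263) lost their knockdown calls both with a transcript length offset and with limma on log2(TPM + 1). Sdhaf2 (0.281) lost its knockdown call with a transcript length offset. Ttc19 (-0.408) lost its knockdown call with limma on log2(TPM + 1). Acad9 (0.089 and 0.125) lost its overexpression call both with a transcript length offset and with limma on log2(TPM + 1).

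Genes that maintain and express mitochondrial DNA numbered 26. In knockdown 4 were higher (15.4%, against 18% of all genes) and 5 lower (19.2%, against 17.4%), shares near those of all genes. In overexpression 5 were higher (19.2%, against 13.1%) and 1 was lower (3.85%, against 11.1%). Fastk, which is known to be needed for mt-Nd6 messenger RNA, was at 48.3, 45.6 and 51.4 CPM in the control libraries, 29, 28.5 and 25.3 in the knockdown libraries and 52.5, 51.8 and 48.3 in the overexpression libraries. The difference was -0.81 ± 0.08 (adjusted p = 7.44e-07) in knockdown, below all other libraries, and 0.07 ± 0.08 (adjusted p = 0.56) in overexpression. The others with the lowest adjusted p in knockdown were the mitochondrial DNA polymerase gene Polg (-0.33 ± 0.06, adjusted p = 0.000319) and Lrpprc, which stabilises mitochondrial messenger RNAs (0.31 ± 0.06, adjusted p = 0.000378). In overexpression they were Tbrg4 (0.28 ± 0.06, adjusted p = 0.00307), Lrpprc, which stabilises mitochondrial messenger RNAs (0.19 ± 0.06, adjusted p = 0.0197) and Fastkd2 (0.23 ± 0.08, adjusted p = 0.0389). The call of Lrpprc was lost without control library 2, or overexpression library 1 (adjusted p up to 0.11). The call of Fastkd2 was lost without control library 1 or 3, or overexpression library 1 or 2 or 3 (adjusted p up to 0.187). Polg (-0.095 and -0.019) lost its knockdown call both with a transcript length offset and with limma on log2(TPM + 1). Lrpprc (0.189 and 0.233) and Fastkd2 (0.317 and 0.355) lost their overexpression calls both with a transcript length offset and with limma on log2(TPM + 1). In overexpression, calls were also lost for Fastkd2 with no filter on low counts, and for Fastkd2 with the replicate block.

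Among 8 transcriptional regulators of respiration, 1 rose (12.5%, against 18% of all genes) and 3 fell (37.5%, against 17.4%) in knockdown, and 1 rose and 1 fell in overexpression (12.5% each, against 13.1% and 11.1%). Ppargc1a, the coactivator of mitochondrial biogenesis, was at 38.1, 31.1 and 34.6 CPM in the control libraries, 46.1, 44.2 and 47.6 in the knockdown libraries and 56.9, 58.7 and 54.9 in the overexpression libraries. It rose by 0.41 ± 0.08 (adjusted p = 0.000674) in knockdown and 0.72 ± 0.08 (adjusted p = 5.33e-06) in overexpression, with no overlap among the 3 lines. Its relative Pprc1 (-0.18 ± 0.06, adjusted p = 0.0198), Nrf1 (-0.23 ± 0.08, adjusted p = 0.0369) and the ETS partner gene Gabpb1 (-0.28 ± 0.10, adjusted p = 0.0335) fell in knockdown, and Gabpb1 also in overexpression (-0.34 ± 0.10, adjusted p = 0.0163). The call of Pprc1 was lost without control library 2 or 3, or knockdown library 1 or 2 (adjusted p up to 0.0617). The call of Nrf1 was lost without control library 1 or 2 or 3, or knockdown library 1 or 3, or overexpression library 1 or 2 (adjusted p up to 0.171). The call of Gabpb1 was lost without control library 1 or 2, or knockdown library 1 or 2 or 3 (adjusted p up to 0.118). In overexpression the call of Gabpb1 was lost without control library 2, or overexpression library 1 (adjusted p up to 0.0845). Ppargc1a (0.445 and 0.487), Pprc1 (-0.161 and -0.089), Nrf1 (-0.202 and -0.139) and Gabpb1 (-0.173 and -0.102) lost their knockdown calls both with a transcript length offset and with limma on log2(TPM + 1). In knockdown, calls were also lost for Nrf1 with a fit of only the 2 lines compared. Gabpb1 (-0.309 and -0.259) lost its overexpression call both with a transcript length offset and with limma on log2(TPM + 1).

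Promoters of nuclear members were read from RefSeq on build GRCm38.p6, 250 bases before to 50 after each start, because Nrf1, ETS factors and Yy1 are known to bind many of them. Entries were found for 68 of 85 nuclear members, 66 by symbol and 2 by synonym. Motifs were searched on both strands, and no matches of different motifs overlapped in these promoters. The Nrf1 core GCGCANGCG was present in 20 of 68 (29.4%, against 7.03% of 27025 genes with a promoter entry). The ETS core CCGGAAG was present in 16 (23.5%, against 9.93%) and the Yy1 core AAGATGGCG in 7 (10.3%, against 1.64%). Of members with an entry that rose in knockdown, 2 of 9 held the Nrf1 core and 0 of 9 the ETS core. Of those that fell, 4 of 16 held the Nrf1 core and 7 of 16 the ETS core, and of those not called 14 and 9 of 39. The Yy1 core was in 2 of 9 that rose, 0 of 16 that fell and 5 of 39 not called. In overexpression the Nrf1 core was in 5 of 10 that rose, 1 of 4 that fell and 14 of 50 not called. There the ETS core was in 0 of 10, 1 of 4 and 15 of 50, and the Yy1 core in 2 of 10, 0 of 4 and 5 of 50. These counts are a description and were not tested.

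Promoters of 3 members are shown because they hold the same Nrf1 core although Sdha and Ndufa5 rose and Cox6a1 fell in knockdown. Capitals mark the Nrf1 core and, in Cox6a1, the ETS core near the start on its reverse strand. Sdha holds 3 matches of the Nrf1 core, and of the 2 starts listed for Ndufa5 the first is shown:
Sdha (chr13:74350191-74350490, minus strand): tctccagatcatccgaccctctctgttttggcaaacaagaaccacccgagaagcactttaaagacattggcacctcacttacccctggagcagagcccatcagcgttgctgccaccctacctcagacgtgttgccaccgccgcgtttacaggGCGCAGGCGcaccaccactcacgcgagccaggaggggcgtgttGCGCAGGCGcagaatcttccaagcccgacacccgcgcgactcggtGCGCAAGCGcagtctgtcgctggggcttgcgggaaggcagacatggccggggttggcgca
Ndufa5 (chr6:24527477-24527776, minus strand): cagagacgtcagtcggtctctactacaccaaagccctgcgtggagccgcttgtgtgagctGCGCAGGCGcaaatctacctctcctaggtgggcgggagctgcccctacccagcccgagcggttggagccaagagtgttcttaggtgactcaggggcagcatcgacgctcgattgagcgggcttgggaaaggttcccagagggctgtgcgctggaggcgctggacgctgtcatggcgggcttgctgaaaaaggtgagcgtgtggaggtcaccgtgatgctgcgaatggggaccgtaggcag
Cox6a1 (chr5:115348909-115349208, minus strand): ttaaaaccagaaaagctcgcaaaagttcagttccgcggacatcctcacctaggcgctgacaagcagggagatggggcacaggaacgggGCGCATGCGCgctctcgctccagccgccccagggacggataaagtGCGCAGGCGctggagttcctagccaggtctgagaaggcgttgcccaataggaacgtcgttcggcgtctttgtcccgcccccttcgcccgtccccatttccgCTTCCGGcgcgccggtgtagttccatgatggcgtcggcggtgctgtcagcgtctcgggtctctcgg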

How the data were processed

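RNA of 9 libraries was measured, 3 for each of 3 lines, grouped by their labels. The authors deposited 1 table per library with estimated counts, TPM and effective length in bases for 140789 transcripts, per the file headers. Salmon 1.4.0, MultiQC 1.11, DESeq2 1.34.0 and build mm39 are named in the submitters' processing notes, and the kit was non-directional per the labels' protocols. Genes were named with GENCODE M21, used for names, chromosome names and shared sequence only: 137161 transcripts (97.42%) matched, and unmatched transcripts held 0.554% to 0.654% of counts. Counts were summed to 51717 genes and rounded. Genes were filtered with filterByExpr, libraries were scaled by TMM, and edgeR 4.0.16 (R 4.3.3) was fitted by quasi-likelihood to all 9 libraries, with Benjamini-Hochberg adjustment over 13064 genes and a threshold of 0.05. The fit was tested on simulated data. Members and lists were chosen with earlier results of these data known.

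Copies were genes with at least 50% of their 31-base words in a member, and summing them was an alternative chosen after seeing the data. Other alternatives used limma 3.58.1 and DESeq2 1.42.0, and Python 3.11.15, pandas 2.3.3 and matplotlib 3.10.9 were used for tables and figures. Named genes were the mitochondrial members, the largest rise and fall and the highest and lowest level in each complex, paralogue sets and up to 3 called genes per companion list and contrast with control. Further called members are also given, except 1 that is counted but not reported here, and other genes named were chosen after their values were seen. Libraries were not paired by replicate number, since same-numbered libraries did not deviate together. This cannot show whether they were handled together, and the labels do not say. Estimated counts of libraries of a line differed by more than sampling noise (chi-square per degree of freedom 4.77 to 10.98). The uneven split of reads between genes and copies enters this value, so it cannot show that the repeats are independent. Each library was counted because the repeats are described as biological. Depth was 16404396 to 22379203 estimated counts per library. Strand was not marked, so antisense reads cannot be told apart.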

Additional observations from a re-analysis of the deposited data

How the results depend on the processing

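Of 80 called values of single members, 22 kept direction and call in all 20 settings, 58 lost the call in 1 or more, and 1 of these reversed, Ndufc1 in overexpression at -0.023 with a transcript length offset. Among genes of the other lists, the reversed values were Ndufaf4 in knockdown at 0.072 with limma on log2(TPM + 1), and Polg between overexpression and knockdown at -0.046 with the length offset and -0.063 with limma on log2(TPM + 1). In knockdown, overexpression and overexpression against knockdown, all genes called numbered 2794, 1575 and 1423 with the length offset and 2503, 1281 and 1034 with limma on log2(TPM + 1), against 4619, 3172 and 2887. Nuclear members called were 19, 4 and 11 with the length offset and 11, 4 and 2 with limma on log2(TPM + 1), against 31, 17 and 21. Mitochondrial members called in overexpression were 3 with the length offset and 2 with limma on log2(TPM + 1), against 5. With no filter on low counts, 10 mitochondrial members were called in knockdown (9 higher, 1 lower) and 6 in overexpression against knockdown (1 higher, 5 lower). In the latter comparison DESeq2 called 3 and limma-voom 1. The mitochondrial share in control, knockdown and overexpression was 63.14%, 66.86% and 65.44% of estimated counts, 54.06%, 57.78% and 55.65% of TPM without mt-Atp8 and mt-Nd4l, and 63.31%, 67.14% and 64.78% with copies summed. The cause of these changes was not tested.

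Leaving out each library in turn gave 3885 to 4555, 2440 to 3297 and 2241 to 2867 called genes in the 3 comparisons. Mitochondrial members called were 6 to 8, 3 to 6 and 0 to 7, and nuclear members 25 to 34, 7 to 18 and 12 to 28. The shares were 56.59% to 57.36%, 60.13% to 61.22% and 57.91% to 58.98%. With the replicate number as a block, 4423, 2957 and 2712 genes, 6, 4 and 0 mitochondrial and 30, 15 and 17 nuclear members were called. Same-numbered libraries correlated at -0.108 to 0.143, and 3 of 9 libraries correlated best with their own number. Atp5s, the lowest tested member, had 103 to 189 estimated counts per library.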

Other observations

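The citric acid cycle, which feeds electrons to complexes I and II, was followed with pyruvate dehydrogenase from a list of 17 genes. In knockdown 3 rose and 3 fell (17.6% each, against 18% and 17.4% of all genes), shares near those of all genes, and in overexpression 6 rose (35.3%, against 13.1%) and 1 fell (5.88%, against 11.1%). Ogdh, of the oxoglutarate dehydrogenase complex, was at 321, 329 and 313 CPM in the control libraries, 409, 409 and 408 in the knockdown libraries and 453, 425 and 425 in the overexpression libraries, and changed by 0.35 ± 0.04 (adjusted p = 3.32e-06) and 0.44 ± 0.04 (adjusted p = 5.66e-07) against control. Its libraries in both lines lay above control, and overexpression lay above knockdown. The others with the lowest adjusted p in knockdown were Cs (0.21 ± 0.04, adjusted p = 0.000239) and Suclg2 (0.25 ± 0.05, adjusted p = 0.000438). In overexpression they were Idh3a (0.24 ± 0.04, adjusted p = 0.000825) and Suclg2 (0.21 ± 0.05, adjusted p = 0.00357). Suclg2 moved to 0.379 in knockdown with a transcript length offset. Suclg2 moved to 0.438 in knockdown with limma on log2(TPM + 1). Idh3a (0.277) lost its overexpression call with limma on log2(TPM + 1). Suclg2 moved to 0.323 in overexpression with a transcript length offset. Suclg2 moved to 0.365 in overexpression with limma on log2(TPM + 1).

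Carriers and subunits outside the name patterns showed opposite calls in 1 gene. Of 9 genes 1 rose (11.1%, against 18% of all genes) and 2 fell (22.2%, against 17.4%) in knockdown, and 2 rose (22.2%, against 13.1%) and 0 fell in overexpression. Slc25a4, the ADP and ATP exchanger of the inner membrane, was at 696, 714 and 708 CPM in the control libraries, 664, 669 and 601 in the knockdown libraries and 826, 782 and 808 in the overexpression libraries. The differences were -0.13 ± 0.04 (adjusted p = 0.0242) and 0.19 ± 0.04 (adjusted p = 0.00364), and 0.32 ± 0.04 (adjusted p = 4.62e-05) between overexpression and knockdown. In knockdown the call of Slc25a4 was lost without control library 2 or 3, or knockdown library 3 (adjusted p up to 0.117). Its paralogue Slc25a5 fell in knockdown (-0.23 ± 0.04, adjusted p = 0.00017) and the outer membrane channel gene Vdac1 rose (0.16 ± 0.04, adjusted p = 0.00349). In overexpression Vdac2 rose (0.16 ± 0.04, adjusted p = 0.0135), and the call of Vdac2 was lost without control library 1 or 2, or overexpression library 2 (adjusted p up to 0.0721). Of 12 coenzyme Q genes, Coq10b fell in knockdown (-0.52 ± 0.14, adjusted p = 0.00805) and Coq8a fell in overexpression (-0.55 ± 0.09, adjusted p = 0.000404). The share was 8.33% in each case, below the 17.4% and 11.1% of all genes that fell. Slc25a4 (-0.129 and -0.064) lost its knockdown call both with a transcript length offset and with limma on log2(TPM + 1). Slc25a5 (-0.168) lost its knockdown call with limma on log2(TPM + 1). Vdac2 (0.16 and 0.205) and Coq8a (-0.246 and -0.156) lost their overexpression calls both with a transcript length offset and with limma on log2(TPM + 1). Slc25a4 (0.228) lost its overexpression call with limma on log2(TPM + 1).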
